A study of Homo sapiens with 8 samples.

Results

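YAP1, WWTR1, TEAD1, TEAD4, CTGF, CYR61, ANKRD1, AMOTL2, AJUBA and LATS2 are 10 genes of the YAP and TEAD transcription pathway, and their RNA levels were followed through 8 libraries of Kyse510 cells. They were found in the tables by gene name, from a list drawn up with earlier results of these data known. All 10 were listed in both expression tables of the series, which held 31582 genes for the inhibitor experiment and 28942 genes for the knockdown experiment, with 26360 genes in both. CTGF and CYR61 are older symbols of CCN2 and CCN1 and are kept here as the tables write them.

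Kyse510 is an established human esophageal squamous cell carcinoma (ESCC) line. The study targeted LSD1, a histone demethylase encoded by KDM1A, and G9a, a histone methyltransferase encoded by EHMT2, with inhibitors and with inducible shRNAs. The inhibitor experiment comprised cells that received vehicle (DMSO-con), 7 µM SP2509 (an LSD1 inhibitor), 7 µM UNC0642 (a G9a inhibitor), or both inhibitors, each for 2 days. The control of the inhibitors is titled DMSO-con while its treatment label reads untreated, so effects of the solvent and of an inhibitor may not be told apart. It is called vehicle here, as in the series description. The doses are stated in that description, where the combination has no separate dose. The knockdown experiment comprised a Kyse510 line with a doxycycline- (Dox-) inducible shRNA against LSD1 (shLSD1) and another against G9a (shG9a), each without Dox and after 2 days of Dox. Both lines were made with a lentiviral vector and held under puromycin for 14 days, so each uninduced control carried the vector and the selection as well. How many clones made up a line is not given in the sources used here. Every condition was 1 library, so that no value below has a replicate check. Dox-treated cells without a hairpin against LSD1 or G9a were not analysed here, and the effects of Dox and of the hairpin cannot be told apart.

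YAP (YAP1) and TAZ (WWTR1) are transcriptional coactivators that do not bind DNA themselves and reach most of their target genes through the TEAD factors. The Hippo kinase cascade, which ends in the LATS kinases, phosphorylates YAP and TAZ and keeps them out of the nucleus, and the cascade responds to cell density, adhesion and tension of the cytoskeleton. CTGF, CYR61 and ANKRD1 are the targets most often read as a measure of YAP and TEAD activity, and in squamous epithelia the pathway is known for its part in the growth of basal cells. Phosphorylation and location of YAP were not measured in these libraries, which report RNA only.

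The core of the TEAD binding motif, GGAATG, was searched on both strands (as CATTCC on the other strand) in RefSeq promoter windows of GRCh38.p14, which run from 250 bases before an annotated start of transcription to 50 bases after it. Of 35116 such windows, 14.0% held at least 1 match, 1.37% held at least 2 and 0.128% held at least 3. A window was found for 7 of the 10 members, and those without a window were CYR61, TEAD1 and TEAD4. Of the 7 members, 6 had a match in at least 1 window, which came to 6 of their 10 windows, and WWTR1 was the member with no match. CTGF held 3 matches, at -169, -104 and -95 relative to its start, and ANKRD1 held 2, at -220 and -128. With SP2509 AMOTL2 and LATS2 (1 match each) and WWTR1 (none) rose, whereas YAP1 and AJUBA (1 each) fell. A link of matches to changes in level was not tested. The 250 bases before the start of CTGF and ANKRD1 are printed because both held more than 1 match and both rose with SP2509. They are read 5′ to 3′ on the strand of the gene, with the motif in capitals, from chr6:131951373-131951622 (minus strand) for CTGF and from chr10:90921088-90921337 (minus strand) for ANKRD1.
CTGF: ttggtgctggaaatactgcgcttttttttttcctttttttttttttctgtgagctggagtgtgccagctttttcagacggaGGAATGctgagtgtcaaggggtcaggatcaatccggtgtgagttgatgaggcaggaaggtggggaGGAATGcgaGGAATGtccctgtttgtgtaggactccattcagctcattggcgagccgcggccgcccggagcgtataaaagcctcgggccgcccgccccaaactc
ANKRD1: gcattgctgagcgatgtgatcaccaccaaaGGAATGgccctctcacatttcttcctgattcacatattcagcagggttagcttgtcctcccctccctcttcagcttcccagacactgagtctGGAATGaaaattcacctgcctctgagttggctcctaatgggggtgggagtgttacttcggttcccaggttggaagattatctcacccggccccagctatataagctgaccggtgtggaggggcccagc

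In CTGF the pair of matches nearest to the start was separated by 3 bases, and the letters tataaaa, the form of a TATA box, followed closer to the start. The other members with a match held 1 each. In YAP1 the match lay at -162, and 30 bases around it are shown from chr11:102110273-102110302 (plus strand). In AMOTL2 it lay at -69 from the downstream of 2 annotated starts and was on the opposite strand, shown from chr3:134374499-134374528 (minus strand). In AJUBA it lay at -59 from the downstream of 2 starts, shown from chr14:22976884-22976913 (minus strand). In LATS2 the match began 10 bases after the start and is not printed.
YAP1: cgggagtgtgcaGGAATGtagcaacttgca
AMOTL2: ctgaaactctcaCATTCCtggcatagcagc
AJUBA: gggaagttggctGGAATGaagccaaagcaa

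**Figure D1:**
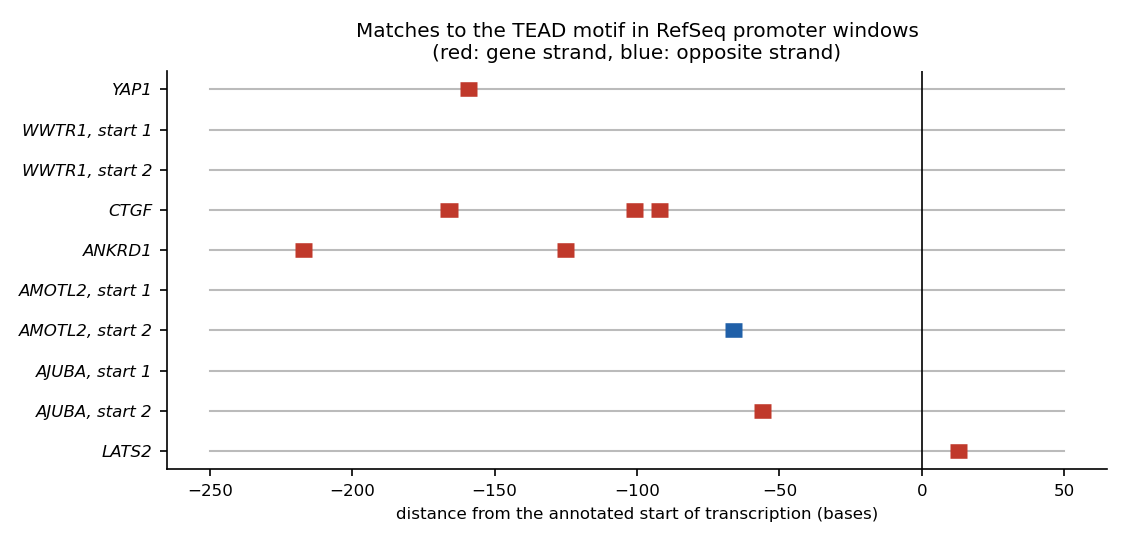
Position of each match to the TEAD motif in the RefSeq promoter windows of the members, in bases from the annotated start of transcription (horizontal axis), with 1 line per annotated start and matches on the strand of the gene in red and on the opposite strand in blue. CTGF carried 3 matches and ANKRD1 carried 2, all before the start, and no match was found for WWTR1. A match describes the letters in the window and no binding was measured.

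The deposited values are FPKM (fragments scaled to transcript length and to mapped fragments), which can be compared between genes because they are per length. Reads behind each value were estimated from the FPKM steps, and the libraries held 15662035 to 17889466 reads. A gene was called changed when FPKM + 1 differed by at least 1.3-fold, at least 1 of the 2 libraries reached 1 FPKM, and an exact two-sided binomial test of the reads gave an unadjusted p under 0.05. This test compares 2 libraries and not 2 conditions. Ratios below are of FPKM with 95% intervals that cover counting error only, log2 fold changes are of FPKM + 1, and "rose" and "fell" are used of called genes alone. In bulk RNA, fewer cells with a transcript and less of it per cell cannot be told apart. The squamous markers KRT5 and TP63 were found at 74.6 to 734 and 18.3 to 127 FPKM across the libraries, whereas PKP1 was at 0.193 to 1.13 FPKM. SOX2, a squamous lineage factor, was at 18.3 FPKM in the vehicle library and fell to 0.313 after SP2509, 4.94 after UNC0642 and 0.636 after both inhibitors, and rose with Dox from 5.24 to 20.1 and from 5.99 to 38.8 FPKM. KRT14 rose with the inhibitors, from 1.93 FPKM to 8.67, 8.31 and 10.1 FPKM in the same order, and KRT6A from 0.676 to 6.56, 20.0 and 16.1 FPKM. TP63 fell with both inhibitors (log2 fold change -2.05), and KRT5 fell with Dox in shLSD1 cells (-1.32). DSG3, a further squamous marker, fell with UNC0642 (-1.25) and with Dox in shG9a cells (-1.20). Of the 7 squamous markers, 6 passed the filter in each inhibitor comparison, 5 with Dox in shLSD1 cells and 7 in shG9a cells. Of these, 4 were called higher and 1 lower with SP2509, 2 and 3 with UNC0642, and 2 and 4 with both inhibitors. With Dox the split was 1 and 1 in shLSD1 cells and 5 and 1 in shG9a cells. The shares of all tested genes called were 55.7%, 29.8%, 58.0%, 33.1% and 45.7% in the same order, and their split up and down follows below. Of the markers of other cell types, COL1A2, DCN, PTPRC, CD3E and CDX2 stayed at or below 0.0494 FPKM and PECAM1 at or below 0.569 FPKM, while VWF reached 1.42 FPKM. COL1A1, also made by fibroblasts, was called higher with SP2509 and with both inhibitors (2.96 FPKM with vehicle, 5.15 and 5.36 FPKM with these). The fibroblast markers COL1A2 and DCN were at or near 0. With Dox in shG9a cells COL1A1 was called lower (log2 fold change -0.46) and VWF higher (0.81). The summed level of the other-cell markers was 3.25 to 6.0 FPKM over the libraries and that of the 7 squamous markers 146 to 904 FPKM. In the check of the knockdowns, KDM1A fell from 26.0 to 6.29 FPKM with Dox in shLSD1 cells, and EHMT2 fell from 7.85 to 4.76 FPKM with Dox in shG9a cells. KDM1A also rose with Dox in shG9a cells, from 26.4 to 35.8 FPKM (log2 fold change 0.43). This call was lost after centring and after TMM, scalings described below that subtracted 0.14 and 0.23. EHMT2 also fell with both inhibitors, from 11.1 to 5.38 FPKM.

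With SP2509, 6 of the 10 members were called higher and 2 lower, in a comparison in which 55.7% of 13342 tested genes were called (18.2% up and 37.5% down). With UNC0642, 3 members were called higher and 3 lower, against 29.8% of 13244 tested genes (15.8% up and 14.0% down). With both inhibitors, 5 were called higher and 3 lower, against 58.0% of 13907 tested genes (28.9% up and 29.1% down). The 3 inhibitor comparisons share the vehicle library. In the shLSD1 line, 3 members were called higher and 4 lower with Dox among 9 that passed the filter on low values, against 33.1% of 12970 tested genes (22.7% up and 10.4% down). In the shG9a line, 1 member was called higher and 3 lower among 9 that passed, against 45.7% of 13080 tested genes (30.0% up and 15.8% down). ANKRD1, below 1 FPKM in all 4 knockdown libraries, was the member that did not pass. The median log2 fold change of the tested members was 0.62, -0.03, 0.43, 0.06 and -0.14 in these 5 comparisons, and that of all tested genes was -0.21, -0.01, -0.02, 0.13 and 0.18.

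The share of higher and lower calls over all genes depended on scaling in 3 of these comparisons. For SP2509, 2425 genes were called higher and 5003 lower as deposited and 3589 and 3276 after TMM scaling, a trimmed-mean correction of library size. For Dox in shLSD1 cells the split was 2944 and 1348 as deposited, 2004 and 1793 after centring on the median gene, and 1775 and 2017 after TMM. For Dox in shG9a cells it was 3919 and 2064, 2679 and 2591, and 2003 and 3037, respectively. On the log2 scale TMM subtracted a shift of -0.28 for SP2509 and of 0.15 and 0.23 for Dox in the shLSD1 and shG9a lines, and centring subtracted 0.11 and 0.14 in the knockdown lines. Among the members, TMM turned the split with SP2509 from 6 higher and 2 lower to 7 and 1. Centring and TMM shifted the fold change alone, and the binomial test of the reads kept the unscaled library totals.

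**Figure D2:**
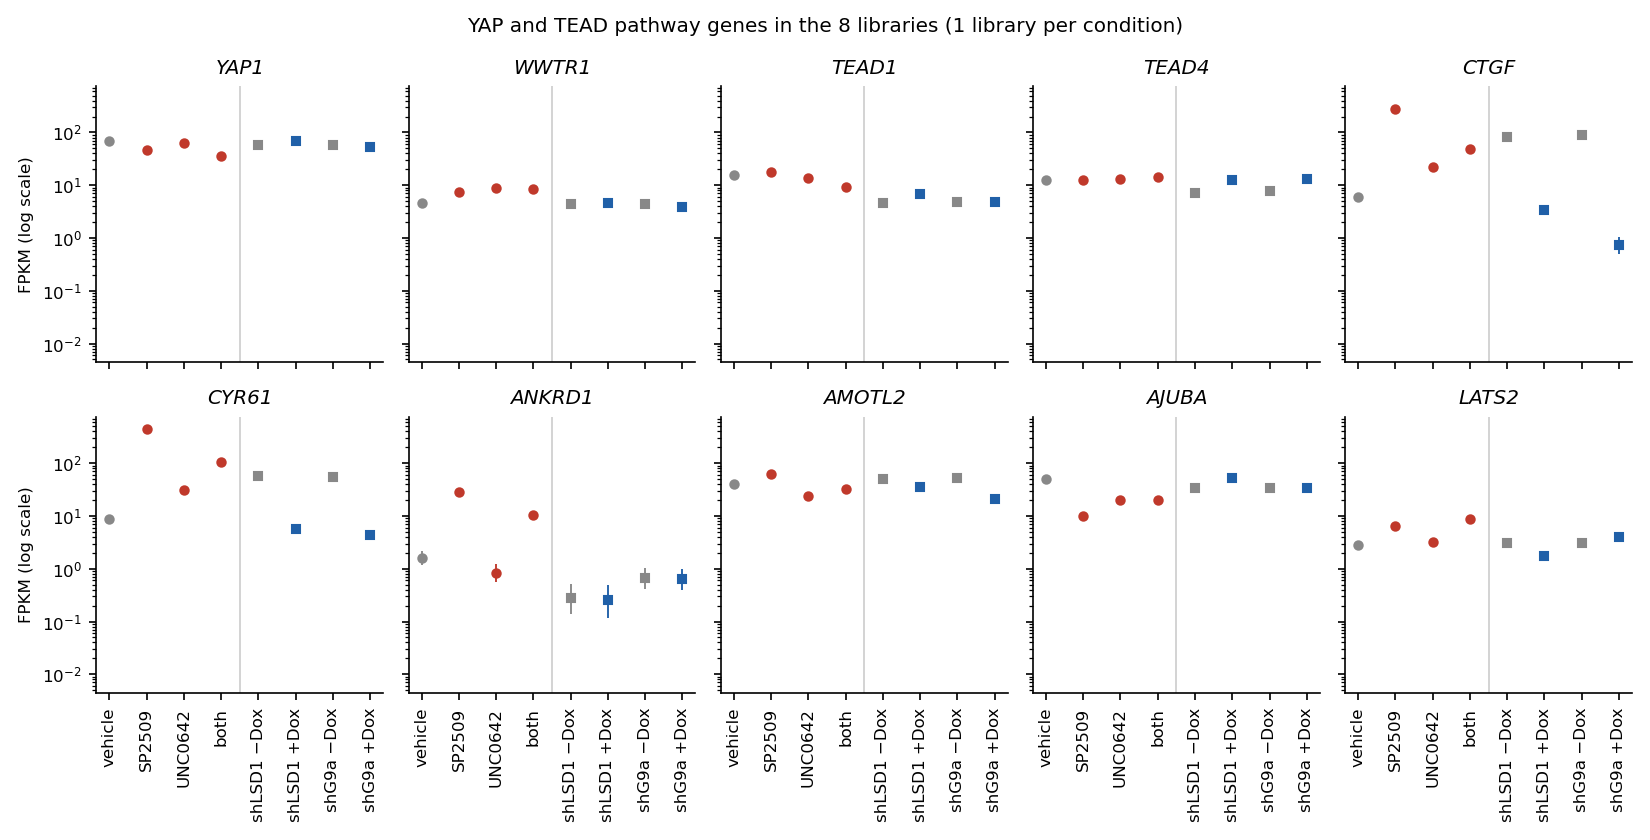
FPKM of each of the 10 members (vertical axis, log scale) in the 8 libraries, with circles for the inhibitor table and squares for the knockdown table, controls in grey, inhibitors in red and Dox in blue. Vertical lines are 95% counting intervals, mostly hidden by the points, and the grey divider separates tables that were normalized separately. CTGF ranged from 0.741 to 277 FPKM and CYR61 from 4.40 to 439 FPKM, whereas YAP1 ranged from 36.3 to 68.5 FPKM.

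**Figure D3:**
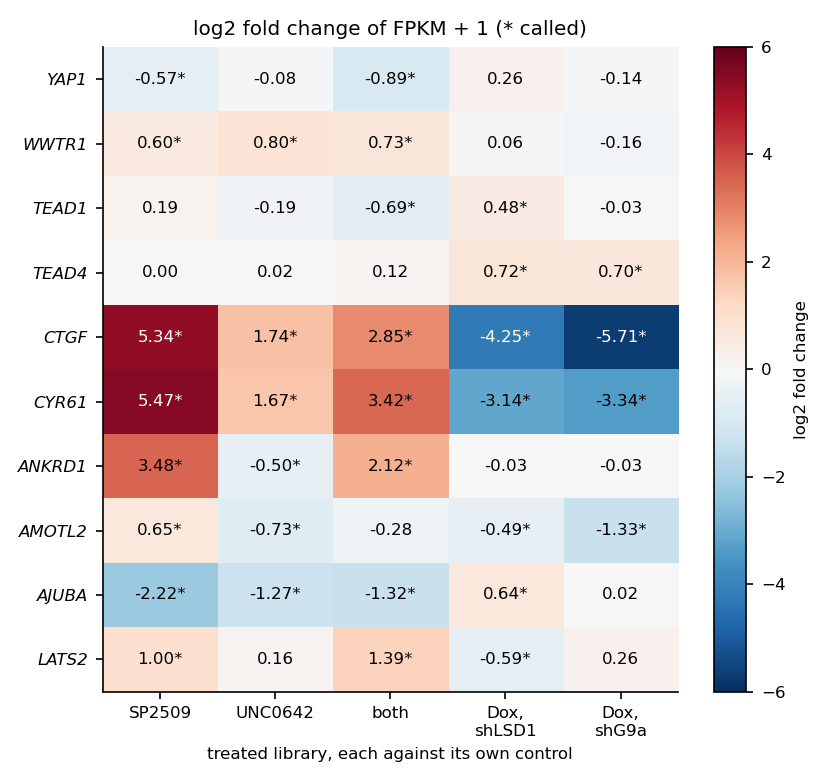
Log2 fold change of FPKM + 1 for each member (rows) in each treated library against its own control (columns), with the colour scale in log2 units from -6 to 6 and called changes starred. CTGF and CYR61 were positive with either inhibitor and with both (1.67 to 5.47) and negative with Dox in both lines (-5.71 to -3.14), and the coactivators and TEAD factors stayed between -0.89 and 0.80.

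Of the coactivators, YAP1 RNA (chr11:102110461-102233423, plus strand) was the more abundant. It stood at 68.2 FPKM in the vehicle library, 45.7 after SP2509, 64.4 after UNC0642 and 36.3 after both inhibitors. YAP1 fell with SP2509 to 0.670 of vehicle (0.646 to 0.695), a call that was lost after TMM scaling (log2 fold change -0.57 as deposited and -0.29 after TMM), and with both inhibitors to 0.532 (0.512 to 0.554). With UNC0642 the ratio of 0.944 (0.913 to 0.976) did not pass the fold threshold. In the knockdown table YAP1 read 56.9 FPKM without and 68.5 with Dox in shLSD1 cells, and 59.0 without and 53.5 with Dox in shG9a cells, and neither difference was called. The highest and lowest of the 8 YAP1 values differed by 1.89-fold, the narrowest range of the 10 members over tables that were normalized separately. Within either table YAP1 was not the narrowest. Its range was 1.88-fold in the inhibitor table, against 1.10-fold for TEAD4. In the knockdown table it was 1.28-fold, against 1.19-fold for WWTR1.

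WWTR1 (chr3:149517235-149736714, minus strand), which encodes TAZ, was the less abundant coactivator and rose in each library with an inhibitor. Its level was 4.64 FPKM in the vehicle library, 7.58 after SP2509, 8.84 after UNC0642 and 8.35 after both inhibitors. The ratio to vehicle was 1.63 (1.48 to 1.80) with SP2509, 1.90 (1.73 to 2.10) with UNC0642 and 1.80 (1.63 to 1.99) with both. These 3 intervals overlapped one another. In the knockdown table WWTR1 was at 4.43 and 4.66 FPKM without and with Dox in shLSD1 cells, and at 4.50 and 3.93 FPKM in shG9a cells. Neither was called as deposited, while after TMM scaling the value of the shG9a line was called (log2 fold change -0.16 as deposited and -0.39 after TMM).

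TEAD1 and TEAD4 encode DNA-binding partners of YAP and TAZ, and both were called higher with Dox in shLSD1 cells, whereas the other calls of each were not shared. TEAD1 (chr11:12674591-12944483, plus strand) was at 15.6 FPKM in the vehicle library, 17.9 after SP2509, 13.5 after UNC0642 and 9.26 after both inhibitors, and it fell with the combination to 0.595 of vehicle (0.558 to 0.633). With SP2509 its log2 fold change of 0.19 was not called as deposited and was called after TMM scaling at 0.47. TEAD1 was at 4.61 FPKM without and 6.83 with Dox in shLSD1 cells, a rise of 1.48-fold (1.36 to 1.62) that was no longer called after centring (0.37 on the log2 scale) or TMM (0.33). In the shG9a line it was at 4.88 and 4.75 FPKM, a ratio of 0.975 (0.885 to 1.07).

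TEAD4 (chr12:2959330-3040673, plus strand) was called with Dox in both lines and in no inhibitor comparison. It was at 12.8 FPKM in the vehicle library, 12.8 after SP2509, 13.0 after UNC0642 and 14.0 after both inhibitors, with overlapping intervals between neighbours in that order. The ratio to vehicle was 1.0 (0.881 to 1.14), 1.02 (0.896 to 1.16) and 1.10 (0.967 to 1.25) with SP2509, UNC0642 and both. With Dox, TEAD4 rose from 7.16 to 12.5 FPKM in shLSD1 cells, by 1.74-fold (1.51 to 2.02), and from 7.82 to 13.3 FPKM in shG9a cells, by 1.70-fold (1.47 to 1.97). The intervals of both lines overlapped without Dox and also with Dox.

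CTGF (chr6:131948176-131951373, minus strand), a secreted matricellular protein, had the widest range of the 10 members over both tables and within the knockdown table. Within the inhibitor table CYR61 was wider, at 49.3-fold against 47.0-fold. It stood at 5.90 FPKM in the vehicle library (216 reads), 277 after SP2509 (11552 reads), 22.1 after UNC0642 (925 reads) and 48.6 after both inhibitors (1918 reads). All libraries with an inhibitor lay above vehicle, and SP2509 alone was the highest. CTGF rose 47.0-fold (41.1 to 54.1) with SP2509, 3.75-fold (3.23 to 4.37) with UNC0642 and 8.24-fold (7.15 to 9.53) with both. Its log2 fold change of 5.34 with SP2509 ranked number 2 from the top of 13342 tested genes.

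In the knockdown table the direction of CTGF was the opposite. Its level was 81.2 FPKM without Dox and 3.32 with Dox in shLSD1 cells (3370 and 136 reads), and 90.3 FPKM without and 0.741 with Dox in shG9a cells (3494 and 30 reads). CTGF fell by 24.4-fold (20.6 to 29.2) in shLSD1 cells and by 122-fold (85.3 to 181) in shG9a cells. The log2 fold changes of -4.25 and -5.71 were the lowest of 12970 and of 13080 tested genes, respectively. The counting intervals of all neighbouring CTGF levels were separate, in the inhibitor table and in the knockdown table alike.

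CYR61 (chr1:85580761-85583962, plus strand), a second secreted protein of the CTGF family, followed the same directions. Its level was 8.89 FPKM in the vehicle library (342 reads), 439 after SP2509 (19172 reads), 30.5 after UNC0642 (1338 reads) and 105 after both inhibitors (4362 reads). CYR61 rose 49.3-fold (44.3 to 55.0) with SP2509, 3.43-fold (3.04 to 3.87) with UNC0642 and 11.8-fold (10.6 to 13.2) with both. With SP2509 its log2 fold change of 5.47 was the highest of 13342 tested genes.

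With Dox, CYR61 went from 56.9 to 5.58 FPKM in shLSD1 cells (2479 and 240 reads) and from 53.7 to 4.40 FPKM in shG9a cells (2180 and 187 reads). It fell by 10.2-fold (8.92 to 11.7) in the former and by 12.2-fold (10.5 to 14.2) in the latter. The intervals of both lines overlapped without Dox and with Dox, so that at this depth CYR61 did not separate the lines, whereas for CTGF the intervals of the Dox libraries were separate. Each of the 5 changes of CTGF and of CYR61 was called under every alternative setting tried.

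ANKRD1 (chr10:90912096-90921276, minus strand), an ankyrin repeat protein of the cytoplasm and nucleus, was the least abundant of the target genes. It was at 1.61 FPKM in the vehicle library (50 reads), 28.2 after SP2509 (994 reads), 0.847 after UNC0642 (30 reads) and 10.3 after both inhibitors (345 reads). ANKRD1 rose 17.5-fold (13.2 to 23.7) with SP2509 and 6.40-fold (4.75 to 8.79) with both inhibitors. With UNC0642 it fell by 1.90-fold (1.19 to 3.10; exact binomial p = 0.00495), a call that rests on 50 and 30 reads, with overlapping intervals of the 2 levels, and that was not made at a minimum of 5 FPKM. In the knockdown table it held 10 and 9 reads without and with Dox in shLSD1 cells (0.285 and 0.260 FPKM) and 22 reads in each library of the shG9a line (0.672 and 0.642 FPKM). The ratios of 0.913 (0.328 to 2.50) and 0.955 (0.504 to 1.81) had wide intervals, so that at this depth a rise or a fall within these bounds remained compatible with the reads. ANKRD1 was already at or below 0.672 FPKM in the uninduced lines, in which CTGF and CYR61 were abundant.

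AMOTL2 (chr3:134355874-134375479, minus strand), a target gene whose product, an angiomotin, binds YAP, moved in both directions among the inhibitors. Its level was 40.0 FPKM in the vehicle library, 63.2 after SP2509, 23.8 after UNC0642 and 32.7 after both inhibitors. AMOTL2 rose 1.58-fold (1.52 to 1.64) with SP2509 and fell by 1.68-fold (1.60 to 1.77) with UNC0642, and its ratio of 0.817 (0.779 to 0.856) with both was not called. The library with both inhibitors thus lay between those with UNC0642 and with vehicle. With Dox, AMOTL2 fell from 50.7 to 35.8 FPKM in shLSD1 cells, by 1.42-fold (1.36 to 1.48), and from 53.4 to 20.6 FPKM in shG9a cells, by 2.58-fold (2.46 to 2.72).

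**Figure D4:**
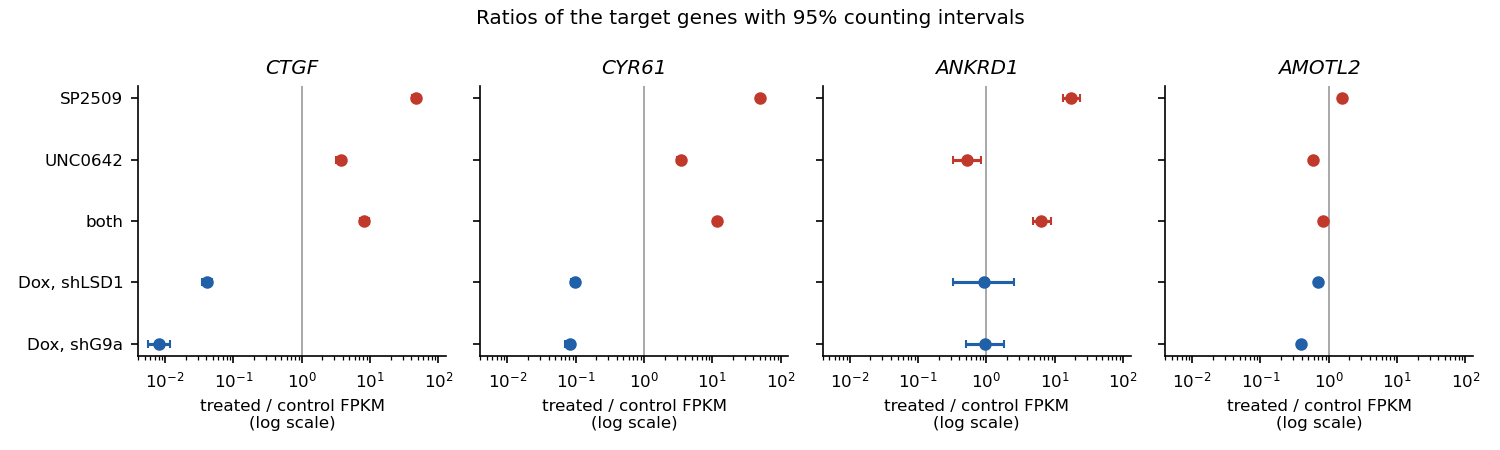
Ratio of treated to control FPKM (horizontal axis, log scale, the grey line at 1) for the 4 target genes in the 5 comparisons (rows), with 95% counting intervals as bars. CTGF and CYR61 lay right of 1 in the 3 inhibitor comparisons and left of it with Dox. The intervals of ANKRD1 spanned 1 in both knockdown lines, and AMOTL2 stayed between 0.387 and 1.58.

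Among the regulators, AJUBA (chr14:22971174-22982642, minus strand), a LIM domain protein that binds the LATS kinases, fell with every inhibitor treatment. It was at 50.7 FPKM in the vehicle library, 10.1 after SP2509, 20.4 after UNC0642 and 19.7 after both inhibitors. AJUBA fell by 5.04-fold (4.71 to 5.39) with SP2509, by 2.48-fold (2.36 to 2.61) with UNC0642 and by 2.57-fold (2.44 to 2.71) with both. The intervals of UNC0642 and of both inhibitors overlapped, and SP2509 alone was the lowest. With Dox, AJUBA rose from 33.4 to 52.7 FPKM in shLSD1 cells, by 1.58-fold (1.51 to 1.64). In the shG9a line it was at 34.0 and 34.5 FPKM, a ratio of 1.01 (0.967 to 1.06) whose log2 value of 0.02 turned to -0.12 after centring and -0.21 after TMM without being called.

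LATS2 (chr13:20973032-21061547, minus strand), a kinase that phosphorylates YAP and TAZ and is itself a target gene of theirs, was at 2.79 FPKM in the vehicle library, 6.59 after SP2509, 3.25 after UNC0642 and 8.94 after both inhibitors. It rose 2.36-fold (2.03 to 2.74) with SP2509 and 3.20-fold (2.77 to 3.71) with both, and the ratio of 1.16 (0.982 to 1.38) with UNC0642 was not called. With Dox it fell from 3.11 to 1.73 FPKM in shLSD1 cells, by 1.80-fold (1.48 to 2.18), a call not made at a minimum of 5 FPKM. In shG9a cells LATS2 was at 3.11 and 3.91 FPKM, a ratio of 1.26 (1.08 to 1.47) that was not called.

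The combination was next compared with either inhibitor alone, a choice made after the levels had been seen. All 4 target genes were lower with both inhibitors than with SP2509 alone. CTGF was lower by 5.71-fold (5.44 to 6.0), CYR61 by 4.17-fold (4.03 to 4.31), ANKRD1 by 2.73-fold (2.41 to 3.10) and AMOTL2 by 1.93-fold (1.85 to 2.01). All 4 were higher with both inhibitors than with UNC0642 alone, CTGF by 2.20-fold (2.03 to 2.38), CYR61 by 3.46-fold (3.25 to 3.68), ANKRD1 by 12.2-fold (8.38 to 18.3) and AMOTL2 by 1.38-fold (1.31 to 1.45). Thus the levels of these 4 target genes with both inhibitors lay between those of the single inhibitors. The further YAP and TAZ target genes described below did not share this as a list. Of the 19 tested, 3 were called higher and 11 lower than with SP2509 alone (median log2 fold change -0.66). Against UNC0642 alone, 3 were called higher and 7 lower (median -0.33). The shares over all genes follow below.

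WWTR1 (8.35 FPKM) and AJUBA (19.7 FPKM) also lay between the single inhibitors, but neither was called different from UNC0642 alone. WWTR1 was not called different from SP2509 alone either, at a ratio of 1.10 (1.02 to 1.20), whereas AJUBA was 1.96-fold (1.82 to 2.11) higher. TEAD1, YAP1 and LATS2 with both inhibitors lay outside the range of the single inhibitors, as did TEAD4 without a call. TEAD1 was lower with both inhibitors than with SP2509, by 1.93-fold (1.82 to 2.05), and than with UNC0642, by 1.46-fold (1.37 to 1.56). YAP1 was lower than with UNC0642 by 1.77-fold (1.71 to 1.84), and its log2 difference from SP2509 of -0.32 was called after centring (-0.44) and after TMM (-0.68). LATS2 was higher than with UNC0642 by 2.75-fold (2.42 to 3.14), and its 1.36-fold (1.22 to 1.51) excess over SP2509 was not called after centring or TMM. Of the 10 members, 2 were called higher and 5 lower against SP2509, where 61.4% of 13658 tested genes were called (39.3% up and 22.1% down). After centring or TMM the split of the members was 1 and 6, and that of all genes went from 5368 higher and 3020 lower to 3529 and 4216 after TMM. Against UNC0642, 5 members were called higher and 2 lower, where 49.7% of 13637 tested genes were called (25.1% up and 24.6% down).

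The controls of both experiments differed from each other in several members. CTGF was 13.8-fold and 15.3-fold higher in the uninduced shLSD1 and shG9a lines than with vehicle, and CYR61 was 6.39-fold and 6.04-fold higher. ANKRD1 went the other way, at 0.176 and 0.417 of vehicle, and TEAD1 stood at 0.296 and 0.313 and TEAD4 at 0.562 and 0.613 of vehicle. YAP1, at 0.834 and 0.865, and WWTR1, at 0.954 and 0.969, were closer. The tables were normalized separately and no test was made across them, and the vector, the puromycin, the vehicle and the table cannot be told apart as sources of these differences. The levels of CTGF with Dox, 3.32 and 0.741 FPKM, were below the 5.90 FPKM of vehicle, and its levels without Dox were between those with both inhibitors and with SP2509 alone.

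Other genes of the pathway were taken from fixed lists and are described by counts. Of 20 further YAP and TAZ target genes, 19 passed the filter in each comparison. With SP2509, 12 rose and 3 fell (14 and 1 after TMM), with UNC0642 9 rose and 2 fell, and with both inhibitors 7 rose and 5 fell. With Dox, 2 rose and 9 fell in shLSD1 cells and 2 rose and 10 fell in shG9a cells. The median log2 fold changes of the list were 0.87, 0.36, 0.09, -0.30 and -0.41 in the order above. The medians of all tested genes, and the shares of them called up and down, are those already given.

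EDN1, the precursor of endothelin, was at 5.75, 144, 11.8 and 16.6 FPKM with vehicle, SP2509, UNC0642 and both inhibitors, rose with each treatment and fell with Dox from 23.2 to 5.90 FPKM and from 18.8 to 4.83 FPKM. F3, which encodes tissue factor, was at 43.4 FPKM with vehicle and at 256, 215 and 189 FPKM with the inhibitors, and it fell with Dox from 88.1 to 24.6 FPKM and from 91.9 to 8.31 FPKM.

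Further target genes on the list went otherwise. TGFB2, a growth factor of the TGF-β family, rose from 5.79 to 30.3 FPKM with SP2509 but fell to 3.45 with UNC0642 and to 2.10 FPKM with both inhibitors. CCDC80 fell from 22.6 FPKM with vehicle to 15.6, 4.64 and 5.05 FPKM with SP2509, UNC0642 and both inhibitors, and its call with SP2509 was lost after TMM. NT5E, which encodes the ectonucleotidase CD73, rose with Dox in both lines, from 1.09 to 5.87 FPKM in shLSD1 cells and from 1.28 to 2.90 FPKM in shG9a cells. BIRC5, an inhibitor of apoptosis that follows the cell cycle, rose with Dox in shLSD1 cells from 7.85 to 13.5 FPKM. NUAK2, a kinase gene, rose with Dox in shG9a cells by 0.61 on the log2 scale, and FOXF2 fell with SP2509 from 7.36 to 3.98 FPKM.

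Of 22 Hippo kinases, adaptors and upstream regulators fixed for this purpose, 21 were listed and 19 passed the filter in each comparison, and DCHS1 was not analysed here. With SP2509 8 rose and 8 fell, a split that became 8 and 4 after centring and 8 and 2 after TMM. With UNC0642 5 rose and 3 fell, and with both inhibitors 4 rose and 4 fell. With Dox 4 rose and 3 fell in shLSD1 cells and in shG9a cells. After TMM this split was 3 and 4 in shLSD1 cells, as also after centring, and 2 and 5 in shG9a cells. Calls in either direction were thus 16, 8, 8, 7 and 7 of 19. Of all tested genes, 55.7%, 29.8%, 58.0%, 33.1% and 45.7% were called in the same comparisons. FRMD6, an upstream FERM domain protein, rose with SP2509 from 14.6 to 61.9 FPKM and fell with Dox in shLSD1 cells from 14.5 to 7.22 FPKM. SAV1, the scaffold of the upper kinases, rose with UNC0642 and with both inhibitors, from 16.0 to 27.1 and 38.0 FPKM, and fell with Dox in shG9a cells from 19.9 to 10.7 FPKM. TAOK2, a kinase above the cascade, fell with SP2509 from 4.74 to 1.04 FPKM, and it rose with both inhibitors to 11.7 FPKM and with Dox from 3.46 to 6.80 and from 4.06 to 9.12 FPKM. PTPN14, a phosphatase that binds YAP, fell with UNC0642 and with both inhibitors, from 17.0 to 9.12 and 4.33 FPKM, and with Dox in shLSD1 cells from 8.71 to 4.81 FPKM.

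The list of other TEAD and VGLL genes held 6 members, of which 4 or 5 passed the filter. VGLL proteins bind TEAD factors at the surface that YAP uses. Among them 3 rose and none fell with SP2509, 1 fell with UNC0642, and 2 rose with both inhibitors (2 and 1 lower after centring or TMM). With Dox 2 rose in shLSD1 cells and 3 in shG9a cells (1 higher and 1 lower, and 2 and 1, after TMM). The shares of all tested genes called in each comparison are those already given. VGLL1 was at 2.69 FPKM in the vehicle library, 12.6 after SP2509, 1.20 after UNC0642 and 1.85 after both inhibitors, and it rose with Dox from 6.47 to 16.8 and from 8.63 to 19.2 FPKM. VGLL3 rose from 0.372 FPKM with vehicle to 2.69 with SP2509 and 3.25 with both inhibitors. TEAD3, which read 17.4 and 25.2 FPKM without and with Dox in shLSD1 cells, rose there, a call that was lost after TMM. TEAD2 rose with Dox in shG9a cells from 8.32 to 14.9 FPKM.

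**Figure D5:**
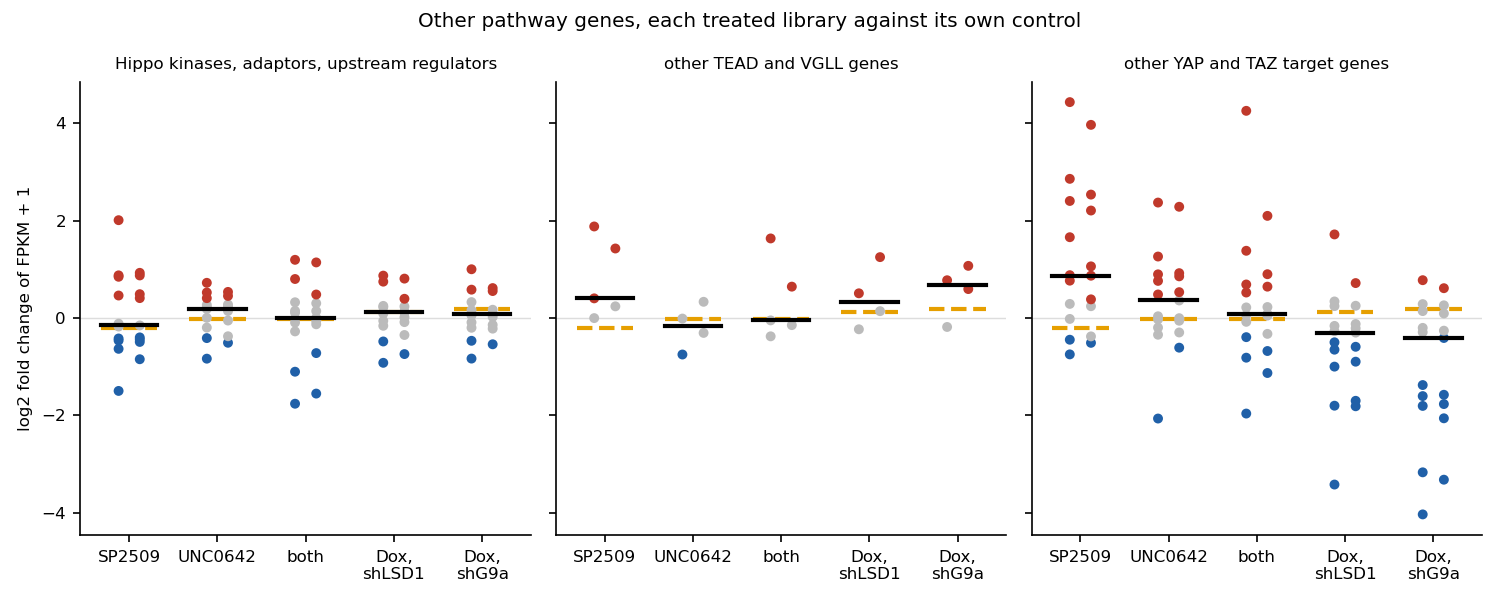
Log2 fold change of FPKM + 1 (vertical axis) of each tested gene of the 3 other pathway lists, in each treated library against its own control, with called rises in red, called falls in blue and other genes in grey. The black line is the median of the list and the dashed orange line the median of all tested genes. The other YAP and TAZ targets had a median of 0.87 with SP2509 and of -0.41 with Dox in shG9a cells.

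The genes most like CTGF and CYR61 were sought among 10053 protein-coding genes that passed the filter in all 5 comparisons, by the root mean square difference of their 5 log2 fold changes. The 3 inhibitor values share a vehicle library, so these 5 values are not independent. Among the 5 nearest to CTGF were CYR61 (1.20), IL1B (1.27), AKAP12 (1.31) and TNFAIP3 (1.54). Among the 5 nearest to CYR61 were IL1B (0.81), DUSP5 (0.87), DUSP1 (0.98) and PTGER4 (0.99). IL1B, which encodes the cytokine interleukin-1 beta, had log2 fold changes of 4.65, 2.99 and 2.88 with SP2509, UNC0642 and both inhibitors and of -2.61 and -3.88 with Dox in the shLSD1 and shG9a lines. DUSP1, a phosphatase of MAP kinases and an early response gene, had values of 4.40, 2.54, 4.33, -1.83 and -2.72 in the same order. CTGF itself, with values of 5.34, 1.74, 2.85, -4.25 and -5.71, was further from its nearest gene than CYR61 was from its own.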

How the data were processed

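Total RNA of Kyse510 cells was sequenced in 8 libraries (paired-end, 150 bases per the labels). The authors removed low-quality reads, mapped the remainder to GRCh38, and deposited FPKM values in 2 tables, and the aligner, the counting tool and whether strand was used are not given in the sources used here. The members and the gene lists were chosen with earlier results of these data known.

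Groups came from the sample titles. Single-exon genes of GENCODE release 44 gave each library's total, and each gene was assigned the smallest length at which all its values were whole reads (within 0.01 read), so reads are estimates. Between 99.6% and 99.8% of each total was assigned. Each treated library was compared with its own control by the fold of FPKM + 1 (pseudocount 1) and by the exact binomial test of reads, with the fold threshold of 1.3 taken from the methods of the study. The estimate of reads and the test were run on simulated libraries with counting error alone. Variation between cultures or preparations was not simulated, so that run cannot speak to it. Genes eligible to be named were the members, KDM1A and EHMT2, per list and comparison the 2 called genes that rose most and the 2 that fell most, and the 5 genes most like CTGF and CYR61, and other markers of cell types are given as a check. The comparisons of the combination with each inhibitor alone were added after the data had been seen. Alternatives were pseudocounts of 0.1 and 0.01, no filter or 5 FPKM as the minimum, fold threshold 2, centring, TMM, fold alone, adjusted p, lengths from each table alone, and the averaged 2 uninduced libraries for control. Overlapping and antisense genes could share reads where strand was not used. Python 3.11.15, NumPy 2.4.6, pandas 2.3.3, SciPy 1.17.1 and matplotlib 3.10.9 were used. Promoter sequences are from RefSeq. A gene that the naming rule also selected is not reported here.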

Additional observations from a re-analysis of the deposited data

How the results depend on the processing

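Of the 70 log2 fold changes of members (10 genes in 7 comparisons), none of those of CTGF and CYR61 lost its call or direction under any alternative. The fold threshold of 2 had the most effect. Members called were then 4 for SP2509, 3 for UNC0642, 5 for both inhibitors, and 2 for Dox in shLSD1 cells, and 3 and 4 for the combination against SP2509 and against UNC0642. All genes called were 2522, 803, 2830, 671 and 1237 in the order SP2509, UNC0642, both, Dox in shLSD1 cells and Dox in shG9a cells, and a minimum of 5 FPKM gave 4401, 2324, 4949, 2687 and 3788, since fewer genes were tested. Against SP2509 and UNC0642, the combination had 3346 and 1574 calls at a fold of 2 and 4971 and 4157 at 5 FPKM. Hippo kinases and regulators called were 2, 0, 5, 0 and 0 at a fold of 2 (4 and 1 in the added comparisons), and 10 with SP2509 after TMM. Other YAP and TAZ targets called were 8, 4, 5 and 5 for SP2509, UNC0642, both and Dox in shLSD1 cells (9 and 3 in the added ones). Of the other TEAD and VGLL genes, UNC0642 had 2 calls at a pseudocount of 0.1 or 0.01 and 0 at 5 FPKM or a fold of 2, both inhibitors had 1 at 5 FPKM or a fold of 2, and Dox had 1 in each line at a fold of 2. The combination had 1 call against SP2509 at a fold of 2 and 0 against UNC0642 at 5 FPKM.

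Directions reversed for members near no change, and the cause was not tested beyond the shift itself. WWTR1 with Dox in shLSD1 cells went to -0.050 after centring and -0.088 after TMM, and AJUBA with Dox in shG9a cells to -0.12 and -0.21. Against SP2509, WWTR1 and TEAD4 with both inhibitors went to -0.23 and -0.24 after TMM. When the 2 uninduced libraries were averaged as a control, TEAD1 and ANKRD1 with Dox in shG9a cells went to 0.0026 and 0.15.

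No paired analysis was possible because each condition was 1 library and the labels carry no replicate numbers. No library was left out, since none would remain for its condition. Depth limited ANKRD1 in the knockdown lines, with 9 to 22 reads a library.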
